A study of Rattus norvegicus with 6 samples.

Results

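Leukocyte adhesion molecules are surface proteins by which endothelial cells hold leukocytes passing in the blood. The genes were taken by name from a list of 8, Vcam1, Icam1, Icam2, Sele, Selp, Pecam1, Alcam and Mcam, and 7 of these names occur among the 33566 rows of the deposited gene count table. Pecam1 has no row under its own name. A row for a gene model outside the named annotation carries a Swiss-Prot match to mouse Pecam1, and it is described here beside the 7 as the row matched to Pecam1. The study exposed primary rat brain microvascular endothelial cells (rBMECs) to homocysteine (Hcy), a sulphur amino acid of the methionine cycle, and sequenced poly(A) RNA to find genes through which Hcy acts on the blood–brain barrier (BBB). The cells came from SD rats 18 to 22 days old, from cerebral cortex in the labels and forebrain in the paper's methods, without any genetic change, were purified in culture and were treated after a single passage. The Hcy group (3 libraries) received Hcy for 24 h, at a dose that the treatment label gives as 100 μM and the treatment protocol and the paper's methods give as a solution of 50 μM. The vehicle group (Veh, 3 libraries) received water. The series describes the replicates as biological, and the sources used here do not say whether each came from its own cell isolation, so the p-values measure the spread between these libraries.

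Leukocytes leave the blood in steps. Selectins on the endothelium catch sugar ligands on the leukocyte and let it roll, immunoglobulin-type molecules such as VCAM-1 and ICAM-1 then bind leukocyte integrins and arrest it, and junctional molecules such as PECAM-1 guide it across the cell layer. In resting brain endothelium the selectins and VCAM-1 are known to be low, and inflammatory cytokines raise them through the transcription factor NF-κB, while ICAM-2, PECAM-1 and MCAM (CD146) are made without a stimulus.

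Of the 7 named genes, Sele, Vcam1 and Mcam rose in Hcy and none fell. Sele, which encodes E-selectin, was 1.98-fold higher, Vcam1 was 2.24-fold higher, and Mcam was 1.33-fold higher. Icam1 and Icam2 did not pass the test, nor did Selp (P-selectin) and Alcam, although every Hcy library lay below every Veh library for both Selp and Alcam. Passing means an adjusted p of at most 0.05 from edgeR's quasi-likelihood test, adjusted over the 14603 genes tested, and all 7 genes were among these. Of all genes tested, 2.34% passed, 1.32% higher and 1.01% lower in Hcy. Vcam1 was the 1 gene of the 7 that also reached the study's threshold of a log2 fold change of at least 1 in size, which 0.486% of the genes tested reached with the adjusted p. Groups did not overlap for 5 of the 7 genes, as for 20.1% of all genes tested. The median log2 fold change was 0.13 over the 7 genes and -0.02 over all genes tested. In RNA from a whole culture, fewer cells making a transcript and less of it in each cell cannot be told apart.

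**Figure D1:**
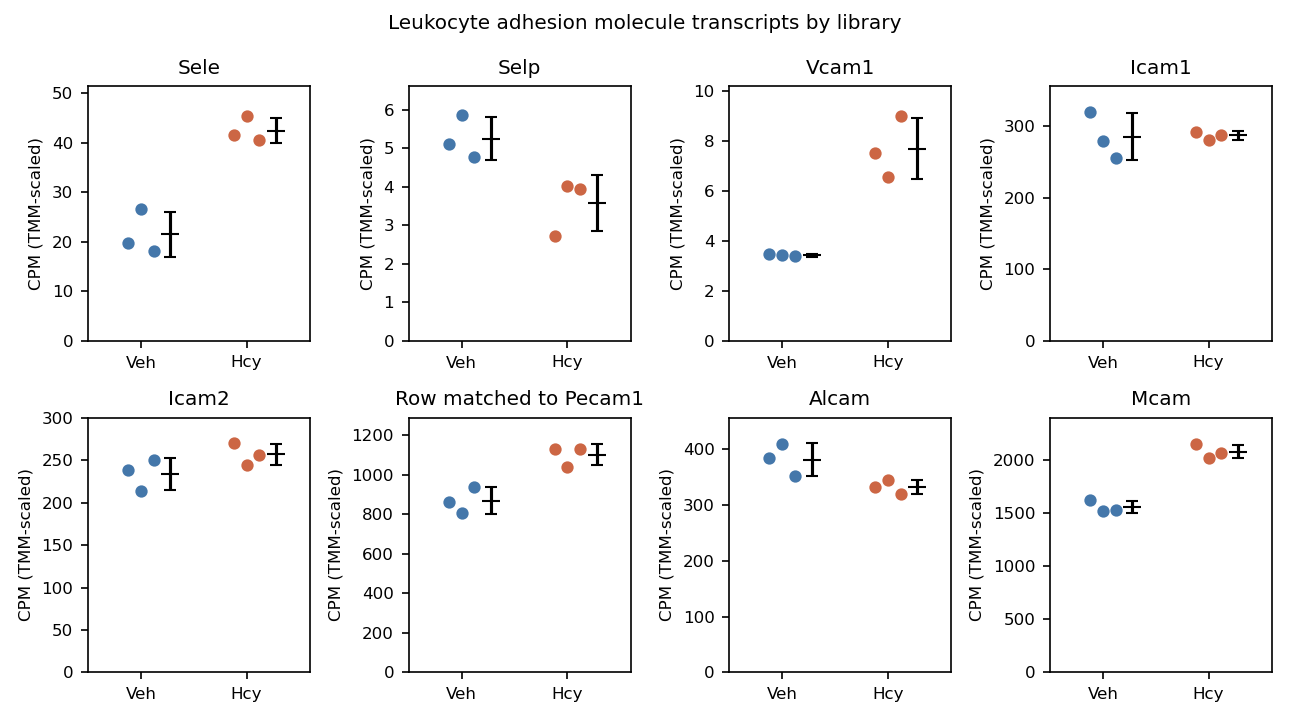
Level of each transcript in CPM (counts scaled to library size, y axis, from 0) in the 3 Veh (blue) and 3 Hcy (orange) libraries, with the group mean and SD in black. Sele, Vcam1, Mcam and the row matched to Pecam1 were higher in every Hcy library, Selp and Alcam were lower, and Icam1 and Icam2 overlapped.

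The libraries held 14024997 to 16764584 counts. Levels are given as CPM, scaled to library size with TMM factors of 0.977 to 1.02. As a floor of detection, 3 counts correspond to 0.179 to 0.214 CPM, for counting error alone, and the 8 rows lay above it in every library. The endothelial identity of the cells was checked on 20 marker genes, of which 18 are named in the table. Vwf, Cdh5 and Eng led them at 2288, 1796 and 1266 CPM in Veh, and the row of Cldn5 (claudin-5) was at 0 in all 6 libraries. The paper reports the protein of this gene in rBMECs by Western blot. Whether reads of Cldn5 were missed by its row was not tested. The summed level of the 18 was 9819 to 11290.3 CPM in Veh and 11226 to 11678 in Hcy. Of the 17 tested none passed with edgeR, 10 had an unadjusted p under 0.05, and 4 passed with DESeq2. Over all 14603 genes tested, 2.34% passed with edgeR, 13.4% had an unadjusted p under 0.05, and 604 genes passed with DESeq2. The values of the 17 had both signs. Log2 fold changes were 0.36 for Vwf, 0.37 for Kdr and 0.29 for Sox17. For Slc2a1, Eng and Tek they were -0.32, -0.27 and -0.24. These sizes were near those of Mcam and the row matched to Pecam1, and some other markers had larger ones. Slco1a4 and Mfsd2a were at -0.53 and -0.44. Robo4 was at 2.04, with 23.8, 23.4 and 3.34 CPM in Hcy replicates 1 to 3 and 5.4, 4.01 and 2.7 in Veh, so its groups overlapped. Leukocyte RNA was low, with Ptprc (CD45), Cd3e and Ms4a1 at 0 in all libraries and 10 microglia and macrophage markers summing to at most 2.66 CPM. Of the other markers, 10 of pericytes summed to 4.08 to 5.26 CPM in Veh and 5.67 to 8.33 in Hcy. The sums of 9 lymphocyte and neutrophil markers were 1.96 to 2.61 and 3.28 to 5.04, nearly all from S100a9 (means of 2.18 and 4). Those of 4 platelet markers, led by Itga2b, were 1.53 to 2.49 and 2.08 to 3.70. Sums of 9 fibroblast markers, led by Col1a1, were 66.6 to 95.5 CPM in Veh and 49.2 to 75.0 in Hcy. Those of 7 astrocyte markers were 126 to 151 and 113 to 117, nearly all from Gja1 (means of 139 and 115). Aqp4 and Slc1a2 were at 0 in all libraries, and Slc1a3, the next highest astrocyte marker in Veh, had a mean of 0.524 CPM there. For 7 neuronal markers, led by Tubb3, the sums were 5.22 to 7.18 and 7.05 to 9.77. For 6 oligodendrocyte markers, led by Mog, they were 11.3 and 10.6 to 12.4. Some smooth muscle markers moved with the treatment. The 6 genes of that list summed to 1162 to 1399 CPM in Veh and 729 to 762 in Hcy, with Tagln, Acta2 and Cnn1 lower and Smtn higher. Lmod1 (log2 fold change -0.48) and Myh11 (-0.04, with a mean of 1.23 CPM in Veh) did not pass. The sums of 10 epithelial markers, led by Krt7, were 551 to 706 and 384 to 417. The part of these shifts in the results was not tested. Without Veh replicate 3, 957 genes passed, against 341 with all libraries, while its median Spearman correlation with the other libraries across genes was 0.9853 and that of the other 5 was 0.9866 to 0.9876.

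The promoters of Vcam1 and Icam1 are shown because the text follows these integrin ligands as a pair, of which Vcam1 rose. RefSeq promoter windows in the rat build GRCr8, 250 bases before to 50 bases after a start site, were at hand for 4 of the 8 names, Vcam1, Icam1, Sele and Alcam. Capitals mark matches to GGNNTTNCC on either strand, a loose form of the NF-κB site whose letters were set after the windows had been read, and a longer capital run is a pair of overlapping matches.
Vcam1 (chr2:206742734-206743033, minus strand): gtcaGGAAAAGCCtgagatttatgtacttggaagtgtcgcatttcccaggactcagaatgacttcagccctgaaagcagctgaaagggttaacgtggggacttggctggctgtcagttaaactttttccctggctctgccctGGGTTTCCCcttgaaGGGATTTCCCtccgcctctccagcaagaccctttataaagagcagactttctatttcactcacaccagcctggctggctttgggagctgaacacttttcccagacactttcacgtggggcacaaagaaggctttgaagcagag
Icam1 (chr8:27829595-27829894, plus strand): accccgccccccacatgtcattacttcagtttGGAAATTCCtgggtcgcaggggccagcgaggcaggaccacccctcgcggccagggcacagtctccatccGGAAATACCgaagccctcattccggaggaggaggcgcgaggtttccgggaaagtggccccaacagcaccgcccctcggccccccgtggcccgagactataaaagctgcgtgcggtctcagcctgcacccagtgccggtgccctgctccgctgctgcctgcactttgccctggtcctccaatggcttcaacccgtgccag
The Vcam1 window held 4 matches. They were GGAAAAGCC from base -246 to -238, GGGTTTCCC from -108 to -100, GGGATTTCC from -93 to -85 and GGATTTCCC from -92 to -84, counted from the start site. Icam1 had 2 matches, GGAAATTCC from -218 to -210 and GGAAATACC from -149 to -141. At least 1 match stood in 16% of the 33469 windows of this length. The TATA box letters TATAAA stood from -60 to -55 in Vcam1 and from -53 to -48 in Icam1, with a further Vcam1 match on the other strand that overlaps the first, and in 14.2% of all windows. Neither Sele nor Alcam had a match to either motif, and their windows begin at start sites 517 and 525 bases inside the RefSeq gene, so another start lies upstream (for Icam1 this distance is 157 bases and for Vcam1 0). None of the 4 windows held the AP-1 letters TGANTCA on either strand, which stood in 7.33% of all windows. None held AGATAA, the letters of blood and endothelial zinc finger factors such as Gata2, which stood in 11.6%. A match is a string of letters and was not tested for binding.

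The endothelial selectins Sele and Selp had fold changes of opposite sign, and of the pair Sele passed. In replicate order 1 to 3, Sele had 580, 676 and 680 counts under Hcy and 332, 417 and 262 under Veh, which is 41.7, 45.4 and 40.6 CPM against 19.7, 26.6 and 18.1 CPM. The gene (ENSRNOG00000002723, bases 82355471 to 82365341, plus strand) lies on chromosome 13 in the deposited positions, which name no build. The lowest Hcy library was well above the highest Veh library. Means and SDs over the 3 libraries were 42.5 ± 2.53 CPM with Hcy and 21.5 ± 4.49 CPM without it. On the log2 scale this is a difference of 0.99 (standard error 0.14, 95% interval 0.67 to 1.3, adjusted p = 0.011 from edgeR), the smallest p of the 8 rows, and it fell just short of the fold threshold of 1. Sele reached that threshold with the replicate number as a block (1.00) and without Veh replicate 2 (1.17, adjusted p = 0.00309 from edgeR), a fit in which Vcam1 lost the adjusted p. Sele passed in all 7 fits that kept the 6 libraries and changed another setting. It lost the threshold without Hcy replicate 1, 2 or 3 (adjusted p = 0.0544, 0.0564 and 0.0541 from edgeR), with log2 fold changes of 1.00, 0.94 and 1.02.

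Selp, whose product P-selectin is stored in endothelial granules and also in platelets, lies 63.7 kb from Sele on the same chromosome (ENSRNOG00000002794, bases 82429063 to 82464628, plus strand). It had 38, 60 and 66 counts in Hcy and 86, 92 and 69 in Veh, or 2.73, 4.03 and 3.94 CPM against 5.11, 5.86 and 4.78 CPM. Each Hcy library was below each Veh library, and the lowest, Hcy replicate 1, stood apart from the other Hcy libraries. The log2 fold change was -0.55 (standard error 0.21, 95% interval -1.03 to -0.08), and it did not pass (adjusted p = 0.278 from edgeR). Without Hcy replicate 1 it was -0.40. The 95% intervals of Sele and Selp lay on opposite sides of 0, but these intervals are not adjusted for the number of genes tested.

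The ratio of Sele to Selp counts within a library does not depend on how libraries are scaled. It was 15.3, 11.3 and 10.3 in the Hcy libraries and 3.86, 4.53 and 3.8 in the Veh libraries, so that the lowest Hcy ratio was well above the highest Veh ratio. The ratio was 2.99-fold higher in Hcy on the log2 scale of means (two-sided exact permutation test over 3 and 3 libraries, p = 0.1, the smallest this design allows). With adjustment over the 3 pairs compared, which were chosen after the values were seen, the p of this exact test was 0.15.

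**Figure D2:**
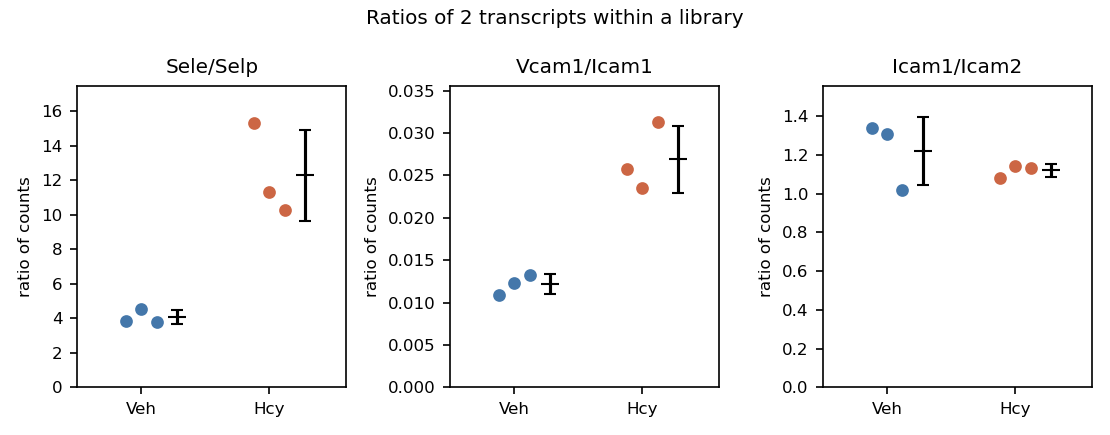
Ratio of counts of 2 transcripts within each library (y axis, from 0) for Sele/Selp, Vcam1/Icam1 and Icam1/Icam2, in Veh (blue) and Hcy (orange), with group mean and SD. The Hcy and Veh libraries do not overlap for the first 2 ratios and overlap for the last.

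VCAM-1 binds the α4β1 integrin of lymphocytes and monocytes. Vcam1, on chromosome 2 (ENSRNOG00000014333, bases 219071193 to 219097619, minus strand), had 105, 98 and 151 counts in Hcy and 59, 54 and 49 in Veh. These are 7.54, 6.58 and 9.01 CPM against 3.50, 3.44 and 3.39 CPM, with Hcy replicate 3 highest and the Veh libraries almost equal. The log2 fold change was 1.16 (95% interval 0.76 to 1.57, adjusted p = 0.0129 from edgeR). It stayed between 1.13 and 1.17 in the 7 fits with another setting, all of which passed. Without Hcy replicate 1 or 3, or Veh replicate 1 or 2, the adjusted p from edgeR was 0.0645, 0.0799, 0.0525 and 0.0548, with log2 fold changes of 1.18, 1.03, 1.18 and 1.16.

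ICAM-1 and ICAM-2 share a partner, the β2 integrin LFA-1. Icam1 lies on chromosome 8 (ENSRNOG00000020679, bases 22035256 to 22047059, plus strand) and Icam2 on chromosome 10 (ENSRNOG00000025143, bases 94569890 to 94576512, minus strand). Icam1 was at 292, 279.9 and 288 CPM in Hcy and 320.1, 279 and 255 CPM in Veh, so that the Hcy libraries sat inside the range of the Veh libraries. The fitted difference was 0.01 in log2 units (standard error 0.09), far from the threshold (adjusted p = 0.981 from edgeR), and its 95% interval of -0.19 to 0.21 lay wholly below that of Vcam1. Icam2 was at 270.3, 245 and 256 CPM in Hcy and 239, 214 and 249.9 CPM in Veh. Here 1 Veh library lay above the lowest Hcy library, and the log2 fold change of 0.13 did not pass (95% interval -0.05 to 0.31, adjusted p = 0.541 from edgeR).

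Vcam1 and Icam1 were also compared within libraries. The ratio of Vcam1 to Icam1 counts was 0.0258, 0.0235 and 0.0313 in Hcy and 0.0109, 0.0123 and 0.0133 in Veh. Hcy libraries were all above Veh libraries, by 2.2-fold (exact permutation test, two-sided p = 0.1, 0.15 over the 3 pairs). The ratio of Icam1 to Icam2 was 1.08, 1.14 and 1.13 in Hcy and 1.34, 1.31 and 1.02 in Veh, and it overlapped (exact permutation test, two-sided p = 0.4, also 0.4 over the 3 pairs).

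The row matched to Pecam1 spans bases 94850971 to 94886247 of chromosome 10 on the minus strand in the deposited positions, 274 kb from Icam2. PECAM-1 (CD31) sits at endothelial junctions and binds its like on the leukocyte, and it is the protein by which the study checked the purity of its cultures. The row was at 1133, 1040 and 1133 CPM in Hcy and 863, 806 and 940.1 CPM in Veh. All Hcy libraries were above all Veh libraries, by a log2 fold change of 0.34 (standard error 0.08, 95% interval 0.17 to 0.51), and the adjusted p of 0.0563 from edgeR missed the threshold. It passed with DESeq2 (adjusted p = 0.00341), with library totals alone (0.0369 from edgeR), with no count minimum (0.0351) and with the replicate number as a block (0.0496), and also without Veh replicate 3 (log2 fold change 0.40, adjusted p = 0.00275 from edgeR).

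Mcam and Alcam encode immunoglobulin-type molecules that join endothelial cells to each other and also bind leukocytes, ALCAM through CD6 on T cells. Mcam lies on chromosome 8 (ENSRNOG00000007726, bases 48472824 to 48481001, plus strand) and Alcam on chromosome 11 (ENSRNOG00000001989, bases 50781127 to 50985083, plus strand). Mcam was the most abundant of the 7 genes. It was at 2151, 2024 and 2066 CPM in Hcy and 1624, 1523 and 1529 CPM in Veh, a gap that no library crossed. Hcy exceeded Veh by 0.42 on the log2 scale (standard error 0.06, 95% interval 0.28 to 0.55, adjusted p = 0.0118 from edgeR), a rise of 33.4%. Mcam passed in the 7 fits with another setting. It lost the threshold without Hcy replicate 1, 2 or 3 or Veh replicate 2 (adjusted p = 0.0784, 0.0594, 0.0825 and 0.0587 from edgeR), while its log2 fold change stayed between 0.39 and 0.45. Alcam was at 332, 344 and 320 CPM in Hcy and 383, 409 and 351 CPM in Veh. The groups were apart by a narrow margin, and the log2 fold change was -0.20 (95% interval -0.37 to -0.03, adjusted p = 0.279 from edgeR). Without Veh replicate 3 it was -0.26 and passed (adjusted p = 0.0232 from edgeR).

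**Figure D3:**
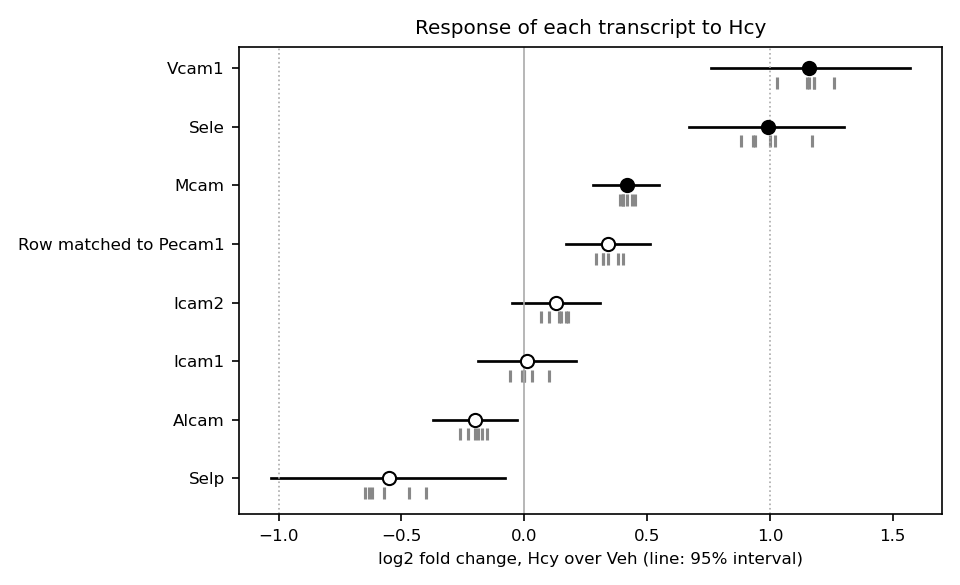
Log2 fold change of each transcript in Hcy over Veh (x axis) with its 95% interval, filled where the adjusted p was at most 0.05. Grey ticks are the values with each library left out in turn, and dotted lines mark a log2 fold change of 1 in either direction. Vcam1, Sele and Mcam are filled.

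Levels were compared between genes as reads per kilobase of the deposited gene length, scaled to library size as CPM are (RPKM). In Veh the order was Mcam at 537 ± 19.5 RPKM (SD, n = 3), the row matched to Pecam1 at 435 ± 33.7, Icam2 at 172 ± 13.6, Alcam at 133 ± 10.2, Icam1 at 108 ± 12.4, Sele at 6.11 ± 1.28, Selp at 1.65 ± 0.175 and Vcam1 at 0.86 ± 0.0139. The first 5 thus lay far above the other 3, with a step of 17.6-fold between Icam1 and Sele. No neighbours in this order overlapped between libraries, although Alcam and Icam1 came within 1.23-fold of each other and their ranges, 122 to 143 and 96.5 to 121 RPKM, almost touched. In Hcy the order changed at its foot, where Vcam1 at 1.92 ± 0.305 RPKM (SD, n = 3) passed Selp at 1.12 ± 0.228, and the step from Icam1 to Sele narrowed to 8.96-fold. Sele at 12.1 ± 0.721 RPKM and Vcam1 stayed far below Icam1 at 108 ± 2.32 RPKM in Hcy. Alcam and Icam1 were 1.07-fold apart there. Mcam stood at percentile 98.9 of RPKM among the genes tested in Veh, while Vcam1 stood at percentile 21.3 in Veh and 30.5 in Hcy, and Sele at 49.5 and 63.8. The length of the row matched to Pecam1, 2000 bases, is that of an assembled model, so its place in this order depends on that model.

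**Figure D4:**
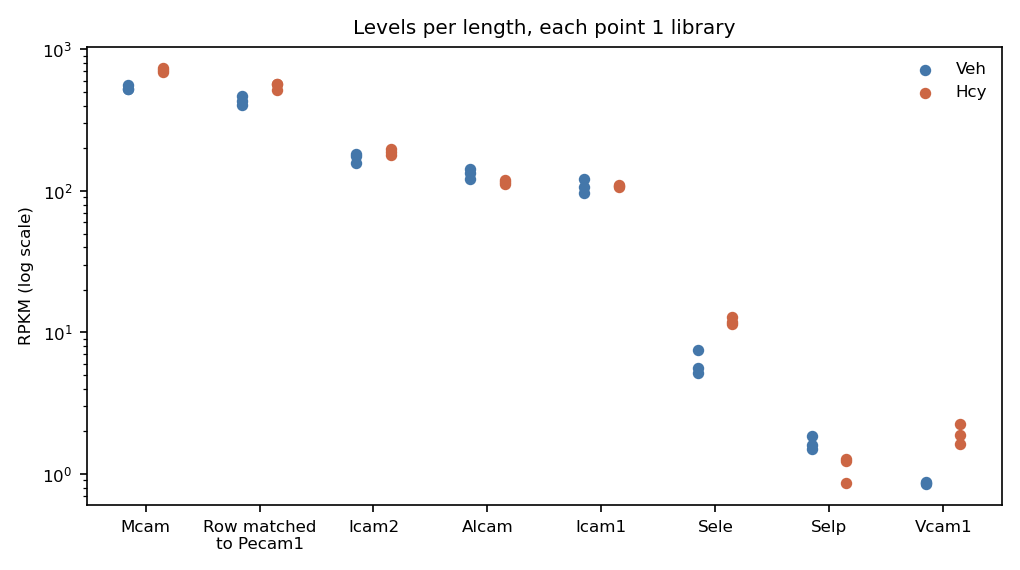
Level of each transcript per length (RPKM, log axis) in Veh (blue) and Hcy (orange), with 1 point for each library, ordered by the Veh mean. Mcam to Icam1 lie far above Sele, Selp and Vcam1 in both groups.

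Other genes of leukocyte capture and passage were read from 7 lists. Of all genes tested, 13.4% had an unadjusted p under 0.05, and 2.34% passed the adjusted p with edgeR (1.32% higher and 1.01% lower). With DESeq2, 604 of the 14603 genes passed, against 341 with edgeR. The lists' counts are to be read against these values, for each tool its own. Of 23 further endothelial ligands and transmigration molecules 18 were tested, with a median log2 fold change of 0.09, and 1 passed (3 had an unadjusted p under 0.05, and 2 passed with DESeq2). This was Cd44, a hyaluronan receptor that also binds E-selectin. Its level was 27.0 ± 0.543 CPM without Hcy and 14.4 ± 0.739 CPM with it (SD, n = 3), and so fell by 0.91 on the log2 scale (adjusted p = 0.00235 from edgeR). The junctional genes Cdh5, Esam, Jam2 and Jam3 had log2 fold changes of 0.13, 0.16, 0.10 and -0.06, and that of F11r (JAM-A) was 0.20 with an adjusted p of 0.183. Madcam1, another integrin ligand, had 4 to 20 counts a library.

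Of 15 leukocyte counter-receptor genes 9 were tested, with a median log2 fold change of 0.52 (0.29 over the 6 with a mean of at least 10 counts a library, a limit set after the values were seen, which leaves out Itgb7, Itga9 and Jaml), and none passed (edgeR, with 4 at an unadjusted p under 0.05, while 1 passed with DESeq2). The rows of the α subunits of the β2 integrins had unequal counts. The Itgax (CD11c) row was at 169, 171 and 164 CPM in Hcy and 125, 131 and 96.6 CPM in Veh, apart in every library. It narrowly missed the threshold (log2 difference 0.52, adjusted p = 0.0503 from edgeR). In the deposited positions this row (bases 199555722 to 199576932 of chromosome 1) lies inside that of Itgam (199495298 to 199623960), on the same strand. Whether its reads come from Itgax was not tested. Itgal and Itgam had at most 4 counts in a library, their β partner Itgb2 was at 3.51 ± 1.11 CPM in Hcy and 3.54 ± 1.18 CPM in Veh (SD, n = 3), and Selplg, the main selectin ligand of leukocytes, had 0. Endothelial cells also make some of the listed genes. Itga4 was at 44.8 ± 7.44 CPM with Hcy and 38.3 ± 12.7 CPM without it (SD, n = 3), and Itgb1 at 2518 ± 103 CPM (SD, n = 3) in Veh and 2837 ± 78.7 in Hcy. Of 9 enzymes and sulphotransferases of selectin ligands 6 were tested and 1 passed, with each tool. Chst2, which sulphates selectin ligands, fell by 0.79 on the log2 scale (adjusted p = 0.0125 from edgeR). None of 15 docking and cytoskeletal partners passed (edgeR, with 2 at an unadjusted p under 0.05, while 1 passed with DESeq2), with a median of -0.02. In that list Msn (moesin), which anchors adhesion molecules to actin, had a log2 fold change of 0.17 and an adjusted p of 0.363.

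Among 8 proteases that shed surface molecules 7 were tested and 2 passed, with each tool, in opposite directions. Mmp9 rose by 3.41 on the log2 scale (adjusted p = 0.00136 from edgeR) and Adam8 fell by 0.60 on the log2 scale (adjusted p = 0.0121 from edgeR). Adam17, a sheddase of VCAM-1, had a log2 fold change of 0.11 and Adam10 one of 0.09, and neither passed. Of 28 genes of NF-κB and its cytokine inputs 25 were tested, with a median of 0.11, and 13 had an unadjusted p under 0.05, while 3 passed with edgeR and 4 with DESeq2. The chemokine genes Ccl5 and Cxcl10 rose, by 0.68 and 0.63 on the log2 scale (adjusted p = 0.0261 and 0.0196 from edgeR), and the TNF receptor gene Tnfrsf1b fell by 0.51 (adjusted p = 0.0288). Tnf, Il1a and Il1b were at 0 in all libraries. Rela, the main activating NF-κB subunit, measured 165 ± 11.9 CPM with Hcy against 161 ± 5.01 CPM without it (SD, n = 3). The subunit genes Relb, Nfkb1 and Nfkb2 were apart in every library, Hcy above Veh, with log2 differences of 0.29, 0.22 and 0.24, and did not pass (adjusted p = 0.173, 0.311 and 0.18 from edgeR). In the other direction Nfkbia, the feedback inhibitor, was below Veh in every Hcy library, with a log2 difference of -0.24 (adjusted p = 0.173 from edgeR). Groups were apart, in either direction, for 20.1% of all genes tested. The subunit gene Rel (-0.12) and the inhibitor genes Nfkbib (0.05) and Nfkbie (0.11) overlapped between groups.

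Of 21 factors that activate or repress adhesion genes in endothelium all were tested, with a median of -0.01, and 4 passed, all lower in Hcy (7 had an unadjusted p under 0.05, and 5 passed with DESeq2). Klf4, a zinc finger factor that restrains endothelial inflammation, was at 16.5, 19.5 and 21.6 CPM in Hcy and 38.5, 37.0 and 36.3 CPM in Veh, a log2 difference of -0.95 (adjusted p = 0.00415 from edgeR). Its relative Klf2, induced by flow, was at 38.1, 35.9 and 37.1 CPM against 56.5, 49.4 and 53.7 CPM, a log2 difference of -0.52 (adjusted p = 0.0129 from edgeR). Neither gene overlapped between groups. Hmox1 (heme oxygenase 1) and Fosl1, an AP-1 subunit, had log2 fold changes of -1.17 and -0.38. Over the lists 11 genes passed, a number that was 4 to 6 without any 1 library other than Veh replicate 3 (5, 4 and 4 without Hcy replicates 1, 2 and 3, and 6 and 5 without Veh replicates 1 and 2) and 19 without Veh replicate 3. Cd44, Mmp9, Klf4 and Hmox1 passed with each library left out. Chst2 did not without Hcy replicate 2 or 3 or Veh replicate 2, and Klf2 did not without any Hcy replicate or Veh replicate 1. Adam8 did not without any Hcy replicate or Veh replicate 2, and Ccl5, Cxcl10, Tnfrsf1b and Fosl1 passed in that round without Veh replicate 3 alone (highest adjusted p from edgeR 0.0825 for Chst2, Klf2 and Adam8, 0.15 for Ccl5, 0.124 for Cxcl10, 0.142 for Tnfrsf1b and 0.183 for Fosl1). With the replicate number as a block, the adjusted p from edgeR was 0.0525 for Tnfrsf1b and 0.0733 for Fosl1.

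**Figure D5:**
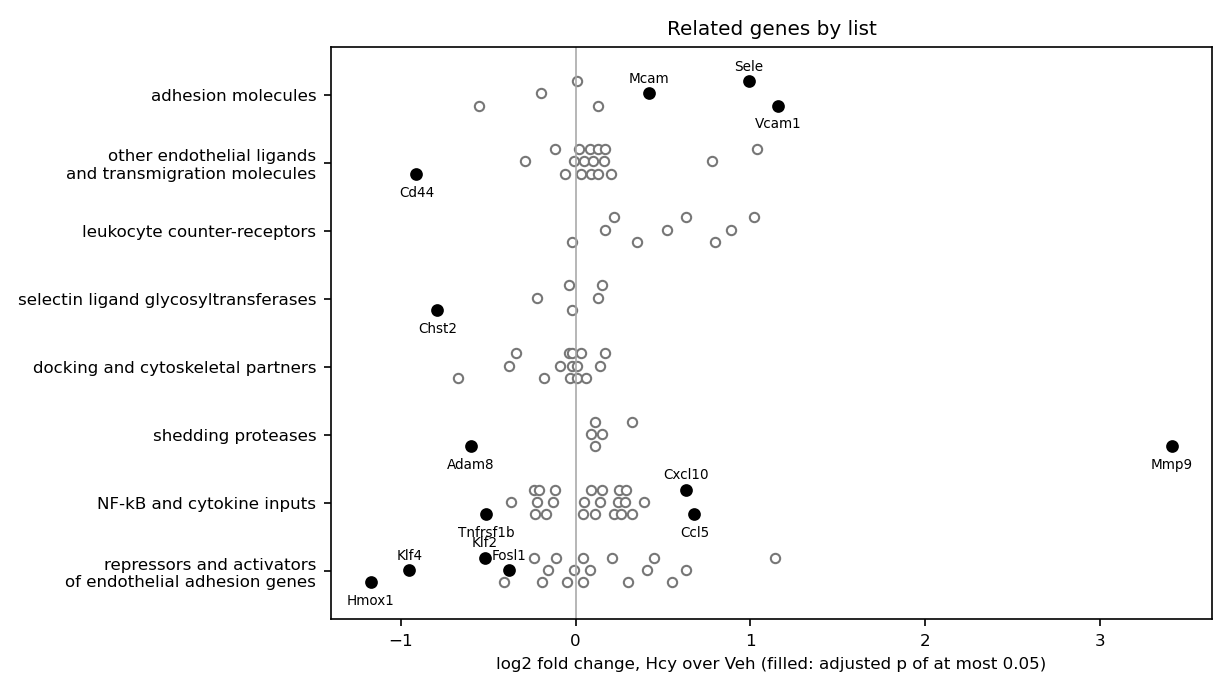
Log2 fold change in Hcy over Veh (x axis) of each tested gene of the adhesion molecules and 7 lists of related genes (y axis). Filled and named points passed an adjusted p of 0.05, among them Sele and Vcam1 on the right and Klf4, Klf2 and Cd44 on the left.

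Genes with a pattern most like that of Sele were sought over the 6 libraries. The measure was the root mean square difference of the log2 of CPM plus 0.5, each gene centred on its own mean. The 5 nearest were Mcm10 (0.0736), Slc6a9 (0.087), Parvg (0.0984), Clspn (0.117) and Inhbb (0.123). The added 0.5 shrinks differences at low CPM. Slc6a9 and Inhbb had larger fitted log2 fold changes (1.22 and 1.29) than Sele (0.99). Mcm10, which loads the replication machinery, was at 11.3, 11.8 and 10.4 CPM in Hcy and 5.40, 6.44 and 4.98 CPM in Veh. As in Sele, Veh replicate 2 was the highest Veh library and Hcy replicate 2 the highest Hcy library. Clspn encodes claspin of the replication checkpoint, Slc6a9 a glycine transporter, Parvg a parvin that binds integrin-linked kinase, and Inhbb an activin subunit. These genes share their libraries with Sele, so the likeness includes what each library brings to all of its genes.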

How the data were processed

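RNA of rBMECs was measured in 6 libraries, 3 Hcy and 3 Veh, grouped by their titles. The deposited table holds whole-number read counts for each gene and library, which had not been normalized. The submitters' processing notes name fastp, HISAT2 2.2.1, StringTie 2.2.3, Cufflinks, featureCounts 2.0.6 and DESeq2 1.42.0, and the build mRatBN7.2 (rn7). The positions in the table name no build and reach 282724300 on chromosome 1, so they are printed as listed, and strand use in counting is not given in the sources used here. No other row overlaps the 8 rows described (0 found). The authors' own DESeq2 table (normalized values, fold changes and p-values) was not used. Rows without a gene name, 683 assembled models holding 0.757 to 0.842% of counts, were kept, since one of them matches Pecam1.

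Genes with at least 10 summed counts (14603) were fitted with edgeR 4.0.16 (R 4.3.3, TMM, quasi-likelihood test, condition as the only term, prior count 0.125) and adjusted by Benjamini-Hochberg over all genes tested. Alternatives were DESeq2, its size factors, library totals, no count minimum, filterByExpr, a replicate block, a prior count of 2, and each library left out. Exact permutation tests used scipy 1.17.1. The fits were tested on simulated data. Members and lists were chosen with earlier results of these data known. The rule named the 8 rows, list genes that passed, leading markers and markers at 0, and the 5 genes most like the member with the smallest p. Other genes were named after their values were seen. For Cttn, which has more than 1 row, the row with most counts was used.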

Additional observations from a re-analysis of the deposited data

How the results depend on the processing

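Leaving out each library gave log2 fold changes of 1.03 to 1.26 for Vcam1, 0.88 to 1.17 for Sele, 0.39 to 0.45 for Mcam, 0.29 to 0.40 for the row matched to Pecam1, 0.07 to 0.18 for Icam2, -0.06 to 0.10 for Icam1, -0.26 to -0.15 for Alcam and -0.65 to -0.40 for Selp. Icam1 changed sign without Hcy replicate 1 (0.00), Veh replicate 2 (-0.01) and Veh replicate 3 (-0.06). The count of genes called went from 71 to between 39 and 112 in these fits, the genes passing the adjusted p from 341 to between 80 and 957, and the list genes passing from 11 to between 4 and 19, with the highest values without Veh replicate 3. The cause of these shifts was not tested. With no count minimum 109 genes were called, and with DESeq2 604 passed the adjusted p. The row matched to Pecam1 passed with DESeq2 (0.34), library totals alone (0.35), no count minimum (0.34) and the replicate block (0.34), and the cause of these gains was not tested. In the fits that kept the 6 libraries, Sele, Vcam1 and Mcam kept their direction and their side of the adjusted p threshold, as did Icam1, Icam2, Selp and Alcam.

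Labels number the replicates 1 to 3 in both groups. Deviations of same-numbered libraries correlated at -0.0194, 0.159 and 0.0507 across genes, and those of differently numbered libraries at -0.189 to 0.146. These ranges overlap and do not settle whether the numbers are pairs. The main fit did not read them as pairs. With the replicate block 82 genes were called and 298 passed, and the log2 fold changes of Vcam1, Sele and Mcam were 1.15, 1.00 and 0.42. Sele then also reached the fold threshold, as it did without Veh replicate 2 (1.17). The depth limits Selp (38 to 92 counts) and Vcam1 (49 to 151 counts) most.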
